A study of Mus musculus with 6 samples.

Results

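The nuclear-encoded subunits of the mitochondrial respiratory chain were examined in RNA sequencing of biliary epithelial cells, which form the lining of bile ducts, from inside the mouse liver. Members were taken by gene symbol: the Nduf genes followed by a letter (a, b, c, s or v) and a digit, the Sdh genes of complex II, the Uqcr genes and Cyc1, the Cox genes numbered 4 to 8, and the Atp5 genes. The pattern matched 88 of the 25302 rows of the deposited table, and leaving out 4 pseudogene rows gave 84 members, with 38 in complex I, 4 in complex II, 9 in complex III, 16 in complex IV and 17 in complex V. Ndufa4 carries a complex I name and was counted with complex IV, where its protein is known to sit. The pattern reads symbols alone and no measured value, but it was chosen with earlier results of these data known. The 2 genotypes compared had 3 libraries each. The Control genotype was Sox9fl/fl, that is, both alleles of the transcription factor gene Sox9 carry loxP sites and no Cre is listed. The Sox9cKO genotype was Sox9fl/fl:AlbCre+/-, the same floxed alleles with 1 copy of the AlbCre transgene, in which the albumin promoter drives Cre recombinase. That promoter is active in the common precursors of hepatocytes and bile duct cells and in hepatocytes. The age and sex of the mice are not in the labels, and nothing there says that the libraries of a group came from separate animals, so p-values measure the spread between these libraries only.

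The respiratory chain moves electrons from NADH and succinate to oxygen through complexes I to IV of the inner mitochondrial membrane, and complex V, the ATP synthase, uses the proton gradient built on the way. Most of the subunits are encoded in the nucleus, translated in the cytosol and imported, and they join a small set of core subunits encoded by mitochondrial DNA. Bile duct cells use ATP to drive ion transport for the secretion of bicarbonate and fluid into bile. In bulk RNA, fewer cells of a type and less RNA per cell cannot be told apart.

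Sox9, the targeted gene, had normalized reads of 6211, 6043 and 6293 in Control and 3363, 3165 and 3339.7 in Sox9cKO (gene reads divided by a size factor of each library, replicates 1 to 3 in each group here and below). On average 53.2% of the Control level remained (log2 fold change -0.91, limma, adjusted p = 0.00501), and the deposited value is for the gene as a whole, so reads from exons outside the floxed part are counted too. The libraries held 11883496 to 16191990 reads assigned to genes, of which members took 0.195% to 0.311% (25197 to 45974 reads). Sox9cKO replicate 1 stood apart for the members: it held the 0.311%, and the other 5 libraries held 0.195% to 0.248%. The main results on the members are therefore given with and without this library. The biliary marker list (18 of 18 tested) summed to between 105807 and 161890 normalized reads in all 6 libraries, and 3 of them were called (Krt7 higher, Sox9 and Ggt1 lower). Hepatocyte markers (16 of 16 tested, none at 0) summed to 21484 to 33900 in Control and 42817 to 72228 in Sox9cKO, and 4 of them rose in Sox9cKO (Apob, Fgb, Serpina1c and Tat). Endothelial markers (10 tested, 0 called) varied from 1898 to 45188 within and across groups. All 10 were above 0, with a median log2 fold change of 1.09. Mesenchymal markers (11 tested, 0 called) varied from 1819 to 3380, and leukocyte and erythroid markers (7 tested) from 1030 to 1803. Of those 7, Csf1r was called higher and was the only one above 0, the median log2 fold change was -0.48, and Lyz2 was called lower with the replicate block (adjusted p = 0.0417). The part of these cells in the members' values was not tested. The hepatocyte sum was highest in Sox9cKO replicate 3, where the members' summed level was lowest. Alb and Apob gave 35363 and 32564 of the 72228 there. In Sox9cKO replicate 1, where the members were highest, 7 of the 16 hepatocyte markers had their highest value. The endothelial sum was highest in Control replicate 2 and Sox9cKO replicate 2, where the members summed to 29329 and 29513 normalized reads. Endothelial sums were 13664, 44198 and 1898 in Control and 35012, 45188 and 7014 in Sox9cKO. Each Sox9cKO library was thus above the Control library of the same number. The mesenchymal sum was highest in Sox9cKO replicate 1, as the members were, at 3380 beside 1819 to 2644 in the other 5 libraries. In that library 6 of the 11 mesenchymal markers had their highest value. Col1a1 had 249, 174 and 76.0 in Control and 759, 197 and 158 in Sox9cKO. Rgs5 was lowest in that library, with 1346, 1173 and 1217 in Control and 636, 1759 and 1248 in Sox9cKO.

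No nuclear-encoded subunit of the respiratory chain differed between Sox9cKO and Control by the test. Of the 84 members, 80 had a mean of at least 10 normalized reads and were tested with limma, and 0 of 80 had an adjusted p under 0.05, where 510 of all 17153 tested genes did (2.97%, 349 higher and 161 lower; 293 higher and 220 lower when libraries were scaled without mitochondrial transcripts and ribosomal RNA). At an unadjusted p under 0.05 the members also gave 0 of 80, where 17.8% of all tested genes passed. edgeR's quasi-likelihood test (2.86% of all tested genes called) and DESeq2 (7.08%) on the recovered reads called 0 members too, and 0 members had an unadjusted p under 0.05 by either. With the replicate number as a block, 1381 genes (8.05%) and 0 members were called, and 3 members had an unadjusted p under 0.05 (among them Ndufs1 and Ndufa8, lowest adjusted p = 0.133) against 26.3% of all tested genes. The lowest adjusted p of a member in the fit without a block was 0.316, for Ndufa12.

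The members' differences were small beside the spread of the libraries. Log2 fold changes (Sox9cKO minus Control, on the log2(value + 1) scale) ran from -0.73 for Ndufa11b to 0.49 for Ndufa8, with 59 members above 0 and 21 below, and a median of 0.12 beside 0.036 over all tested genes. The 95% intervals of the fold changes lay wholly between -1 and 1 on the log2 scale for 73 of 80 members, and within 1.5-fold either way for 17 of 80. The intervals, which are not adjusted for the number of genes, reached 0.33 to 1.30 to either side of the estimate, with a median of 0.53. Without Sox9cKO replicate 1 the direction turned: 19 of 81 tested members were above 0 and 62 below, with a median of -0.11 beside 0.029 over all tested genes. In that fit limma called 0 of 81 members where it called 2.01% of all tested genes, and 5 members had an unadjusted p under 0.05 (Ndufa6, Cox4i1, Cox7a1, Atp5d and Atp5j2, all lower, lowest adjusted p = 0.143) against 16% of all. The sign of the members' median also depended on the scaling, at -0.0032 after quantile normalization and 0.023 when mitochondrial transcripts and ribosomal RNA were left out of the scaling. The groups did not overlap for 3 of 80 members, all higher in Sox9cKO (Ndufa12, Ndufb6 and Cox5a), which is 3.75% beside 24.2% of all tested genes (13.4% higher and 10.8% lower).

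**Figure D1:**
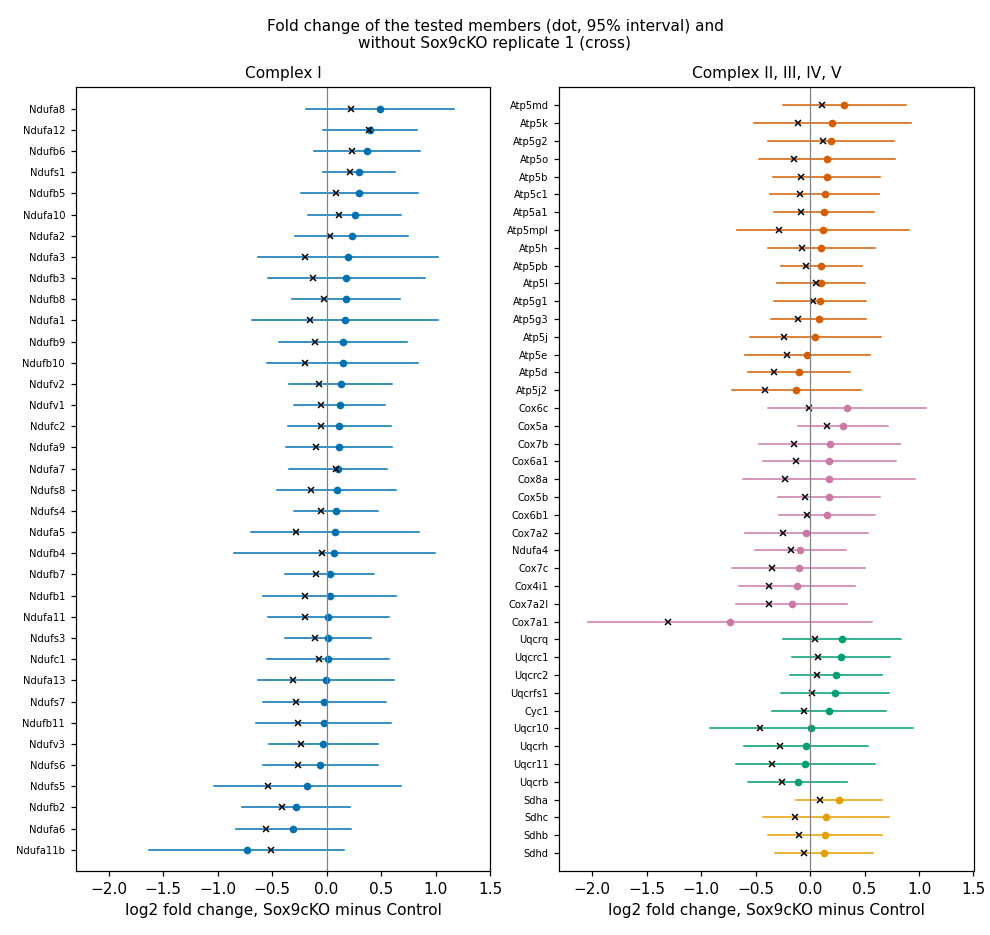
Log2 fold change of the tested members reported by name (dots, with 95% intervals from limma as lines), grouped by complex on the vertical axis, with the value without Sox9cKO replicate 1 as a cross. No member passed the threshold. Most dots lie to the right of 0, while 62 of 81 tested members lie to the left of 0 once the 1 library is left out.

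The members' values went together by library. Sox9cKO replicate 1 had the highest value of all 6 libraries for 73 of 84 members (71 of the 80 tested, 88.8%), where it was the highest for 23.3% of all tested genes. This held for 32 of 38 members in complex I, 4 of 4 in complex II, 9 of 9 in complex III, 12 of 16 in complex IV and 16 of 17 in complex V, and for the 16 core subunits listed (7 of complex I, all 4 of complex II, Uqcrfs1, Cyc1, Atp5a1, Atp5b and Atp5c1). The median member was 1.47 times the mean of the other 5 libraries there (range 0.467 for Ndufa11b to 2.17 for Uqcr10 among tested members), where the median over all tested genes was 1.004. The 11 members that were highest elsewhere were Ndufa12 and Ndufc1 (Sox9cKO replicate 3), Ndufa11b (Control replicate 2), Ndufb2, Ndufb4, Atp5l, Cox4i2 and Cox6b2 (Control replicate 3), and Ndufa7, Cox7a1 and Ndufa4 (Control replicate 1). Sox9cKO replicate 3, of the same genotype, was the lowest library for 39 of 84 members. The summed normalized reads of all members were 33704, 29329 and 29519 in Control and 45740 in Sox9cKO replicate 1, with 29513 and 28525 in Sox9cKO replicates 2 and 3. The Sox9cKO mean was 1.12 times the Control mean with all libraries and 0.941 times without Sox9cKO replicate 1. The coefficient of variation of the median member was 10.4% in Control, below the 16.7% of all tested genes, and 28.5% in Sox9cKO, above the 19.7% of all tested genes.

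**Figure D2:**
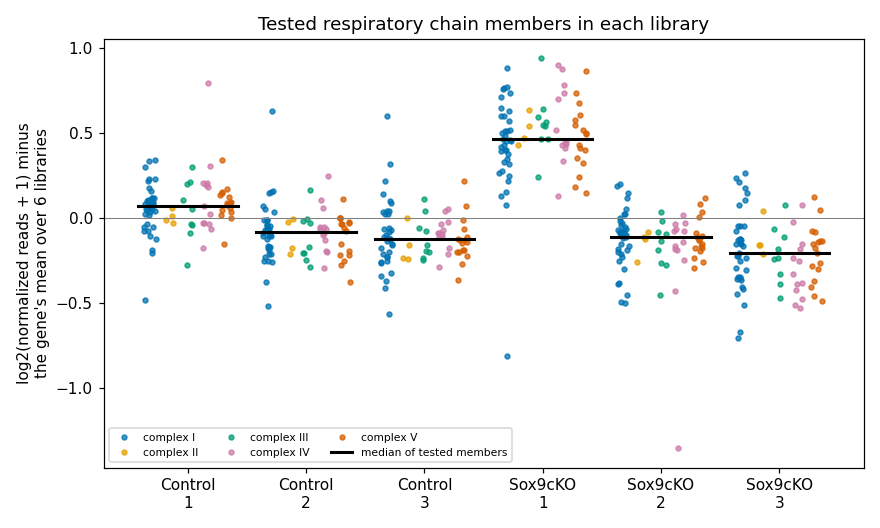
Each tested member's log2(normalized reads + 1) minus its own mean over the 6 libraries (vertical axis), by library (horizontal axis), coloured by complex, with the median of the tested members as a bar. The members of all 5 complexes sit high in Sox9cKO replicate 1 (median 0.47) and low in Sox9cKO replicate 3 (median -0.21).

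Member transcripts are short, with a median of 723 bases beside 2566 for all tested genes, and the pattern was recomputed with length taken out. After a smooth function of transcript length and GC content was removed from each library, this library was still the highest for 64 of 80 members (19.9% of all tested genes), and the median deviation was 0.42, where it had been 0.47. Cytosolic ribosomal protein genes, a set of short and abundant transcripts outside the mitochondria that was added after the values were seen, were highest in that library for 61 of 77, with a median deviation of 0.35, and limma called 0 of 77 (2 with an unadjusted p under 0.05). Sox9cKO replicate 1 had 10.1% of its reads on mitochondrial transcripts, inside the 7.58% to 10.2% of the 6 libraries. In normalized reads these transcripts were highest in that library, at 1484810 beside 1080820 to 1383110 in the other libraries.

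Same-numbered libraries of both groups deviated together across genes, and the members were also compared within these pairs. The first pair, which holds Sox9cKO replicate 1, had the lowest correlation of these deviations, at 0.21 beside 0.47 and 0.54. In the first pair 75 of 80 tested members were higher in the Sox9cKO library (median difference 0.43 on the log2 scale), in the second 40 were higher and 40 lower (median 0.00019), and in the third 26 were higher and 54 lower (median -0.11). Of all tested genes, 53.5%, 52.7% and 53.1% were higher in the Sox9cKO library of the 3 pairs. The same sign in all 3 pairs was seen for 14 members on the higher side (among them Ndufa2, Ndufa8, Ndufa10, Ndufa12, Ndufb6, Ndufb8, Ndufs1, Sdha, Uqcrc1, Uqcrc2, Uqcrfs1, Cox5a and Atp5g2) and for 2 on the lower side (Ndufa11b and Cox7a1). Over all tested genes the shares were 26.7% higher and 21.8% lower in all 3 pairs, so that 14 and 2 of 80 members lay under both.

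**Figure D3:**
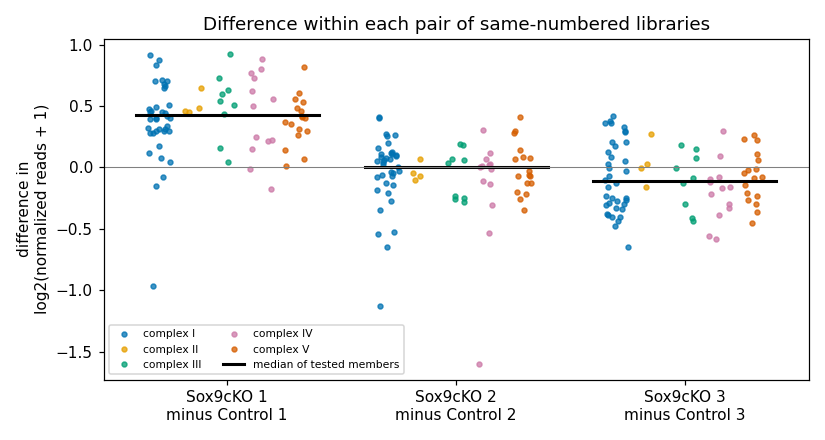
Difference in log2(normalized reads + 1) between the Sox9cKO and the Control library of the same number (vertical axis) for each tested member, coloured by complex, with the median as a bar. The 3 pairs have medians of 0.43, 0.00019 and -0.11, so the pairs do not share a direction.

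The members' promoters were searched for sequences bound by the factors best known for respiratory genes. These were the NRF1 palindrome (the capitals in the Ndufa11 sequence printed here) and the extended YY1 motif. The core CCGGAAG, or CTTCCGG on the other strand, of GABPA and other ETS factors was searched for too. Promoter sequences, 250 bases upstream to 50 downstream of the start, came from RefSeq on GRCm38.p6 and were found for 67 of 84 members, with 1 promoter a gene (the first listed) counted. The NRF1 letters stood in 5 of 67 (7.46%, beside 0.977% of 27025 genes), the ETS letters in 16 of 67 (23.9%, beside 9.12%) and the YY1 letters in 4 of 67 (5.97%, beside 0.699%), on either strand. The promoters of 23 members held at least 1 of the 3. Members' promoters were richer in GC (median 58.3%, beside 52.7%), and no allowance was made for that. A match is a description of the letters and not a bound site, and its part in the members' values was not tested. The NRF1 matches were in Ndufa11, Uqcrc1, Cox6a1, Atp5k and Atp5g2, and the YY1 matches were in the complex I genes Ndufa9, Ndufs4, Ndufs6 and Ndufs7. Only matches wholly upstream of the start are marked in the printed sequences, and an ETS match counted for Atp5k is not marked there. As examples of where the letters lie, 5 upstream stretches of 180 bases are printed, 1 from each complex. They are read 5′ to 3′ along the gene's strand, with the matched letters in capitals: Ndufa11 on the plus strand at chr17:56717582-56717761 (NRF1, 60 to 51 bases upstream of the start), Sdhd on the minus strand at chr9:50603850-50604029 (ETS, 46 to 40 bases), Uqcr11 on the minus strand at chr10:80406822-80407001 (ETS, 66 to 60 bases), Cox6a1 on the minus strand at chr5:115348959-115349138 (NRF1 at 162 to 153 and ETS at 16 to 10 bases) and Atp5k on the minus strand at chr5:108434400-108434579 (NRF1, 50 to 41 bases).
Ndufa11: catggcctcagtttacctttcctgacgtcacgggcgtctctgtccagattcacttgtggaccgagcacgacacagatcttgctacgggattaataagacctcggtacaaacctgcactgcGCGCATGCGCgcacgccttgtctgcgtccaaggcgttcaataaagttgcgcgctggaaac
Sdhd: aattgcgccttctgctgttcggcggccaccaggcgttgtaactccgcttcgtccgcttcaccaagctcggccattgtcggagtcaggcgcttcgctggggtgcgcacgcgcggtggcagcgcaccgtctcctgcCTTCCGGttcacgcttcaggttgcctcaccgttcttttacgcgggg
Uqcr11: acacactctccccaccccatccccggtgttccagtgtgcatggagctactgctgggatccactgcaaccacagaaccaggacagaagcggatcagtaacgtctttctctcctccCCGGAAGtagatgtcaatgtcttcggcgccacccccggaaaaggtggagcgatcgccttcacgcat
Cox6a1: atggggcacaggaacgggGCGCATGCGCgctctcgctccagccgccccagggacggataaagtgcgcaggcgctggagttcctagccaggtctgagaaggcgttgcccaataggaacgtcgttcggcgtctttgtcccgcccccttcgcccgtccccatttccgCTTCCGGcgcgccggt
Atp5k: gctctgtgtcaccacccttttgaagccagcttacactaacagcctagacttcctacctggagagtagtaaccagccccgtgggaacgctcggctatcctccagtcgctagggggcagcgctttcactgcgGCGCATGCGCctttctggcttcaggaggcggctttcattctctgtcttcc

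Complex I takes electrons from NADH and passes them along flavin and iron-sulfur centres to ubiquinone. Of its 38 members 37 were tested and 0 were called, 28 were above 0 and 9 below, with a median log2 fold change of 0.10, or -0.11 without Sox9cKO replicate 1 (9 of 37 above 0). The matrix arm's redox subunits were read first. Ndufv1, which binds NADH and the flavin, had normalized reads of 578, 481 and 498 in Control and 712, 503 and 496 in Sox9cKO. Its 2 lower Sox9cKO libraries lay inside the Control range, and the log2 fold change was 0.12 (95% interval -0.30 to 0.53, adjusted p = 0.78). Its partner Ndufv2, an iron-sulfur subunit, had 391, 339 and 306 in Control and 493, 332 and 325 in Sox9cKO, with a log2 fold change of 0.13 (adjusted p = 0.791). Ndufs1, the largest iron-sulfur subunit of the arm, had 682, 566 and 556 in Control and 829.7, 677 and 715 in Sox9cKO. All but 1 Control library lay under every Sox9cKO library, and the log2 fold change of 0.30 (95% interval -0.03 to 0.63) had an adjusted p of 0.326, or 0.133 with the replicate block.

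Ndufs3, a subunit of the ubiquinone module, had normalized reads of 174, 178 and 197 in Control and 218, 171 and 168 in Sox9cKO, with a log2 fold change of 0.011 (adjusted p = 0.983). Ndufs7, which holds the last iron-sulfur cluster before ubiquinone, had 238, 217 and 209 in Control and 314, 191 and 172 in Sox9cKO, and Ndufs8, which holds the clusters before it, had 163, 146 and 152 in Control and 227, 151 and 128 in Sox9cKO. In both genes Sox9cKO replicate 1 was the highest library and Sox9cKO replicate 3 the lowest, and the fold changes were -0.02 (adjusted p = 0.978) and 0.093 (adjusted p = 0.882). In Ndufv1, Ndufv2, Ndufs1, Ndufs3, Ndufs7 and Ndufs8 the 95% interval lay between -1 and 1.

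The accessory subunits surround that core. Ndufa12, at the joint of the NADH and ubiquinone modules, had normalized reads of 117, 168 and 147 in Control and 191, 178 and 197 in Sox9cKO. All 3 Sox9cKO libraries lay above all 3 Control libraries, and the log2 fold change of 0.40 (95% interval -0.031 to 0.83, adjusted p = 0.316, 0.213 with the block) was 0.39 without Sox9cKO replicate 1. Ndufb6, a subunit of the membrane arm, had 82.4, 71.5 and 71.4 in Control and 117, 94.5 and 82.6 in Sox9cKO. Its groups also did not overlap, by as little as 0.266 normalized reads between Control replicate 1 and Sox9cKO replicate 3, and the fold change was 0.37 (adjusted p = 0.415). Ndufa8, on the intermembrane face, had 125, 129 and 91.0 in Control and 231, 155 and 114 in Sox9cKO and the highest fold change of any member at 0.49 (adjusted p = 0.437), which became 0.23 without Sox9cKO replicate 1. Ndufa6, a small subunit that docks the acyl carrier protein on the matrix arm, had 490.1, 418 and 423 in Control and 505, 290.1 and 312 in Sox9cKO. The 2 later Sox9cKO libraries lay under all 3 Control libraries, and the fold change of -0.30 (adjusted p = 0.543) was -0.55 without the first (adjusted p = 0.143).

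Ndufb2, a further subunit of the membrane arm, had 118, 126 and 132 in Control and 124, 80.3 and 109.8 in Sox9cKO (log2 fold change -0.28, adjusted p = 0.56). Ndufs4, needed for a stable NADH module, had 349, 321 and 309 in Control and 423, 327 and 302 in Sox9cKO (log2 fold change 0.091, 95% interval -0.30 to 0.48). Ndufa11, which sits in the membrane arm and whose promoter is printed above, had 132, 108 and 124 in Control and 164, 117 and 95.1 in Sox9cKO. Ndufa11b, listed under a similar symbol, had only 18.5, 26.0 and 20.7 in Control and 8.95, 11.3 and 19.2 in Sox9cKO and the lowest fold change of any tested member (log2 fold change -0.73, 95% interval -1.63 to 0.16, adjusted p = 0.376), and it was the tested member with its lowest value in Sox9cKO replicate 1. Ndufb4 had 14.3, 11.1 and 25.3 in Control and 19.9, 15.1 and 15.8 in Sox9cKO, and Ndufb4c, a near-identical copy that was not tested, had 1.68, 0.928 and 3.46 in Control and 4.97, 3.78 and 3.40 in Sox9cKO. Of the 50-base words of Ndufb4c, 100% also occur in another gene's transcripts, so the division of reads between these copies is uncertain. A further 21 tested members of complex I had Control means of 61.8 (Ndufa1) to 433 (Ndufa10) normalized reads and fold changes between -0.18 (Ndufs5) and 0.30 (Ndufb5).

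**Figure D4:**
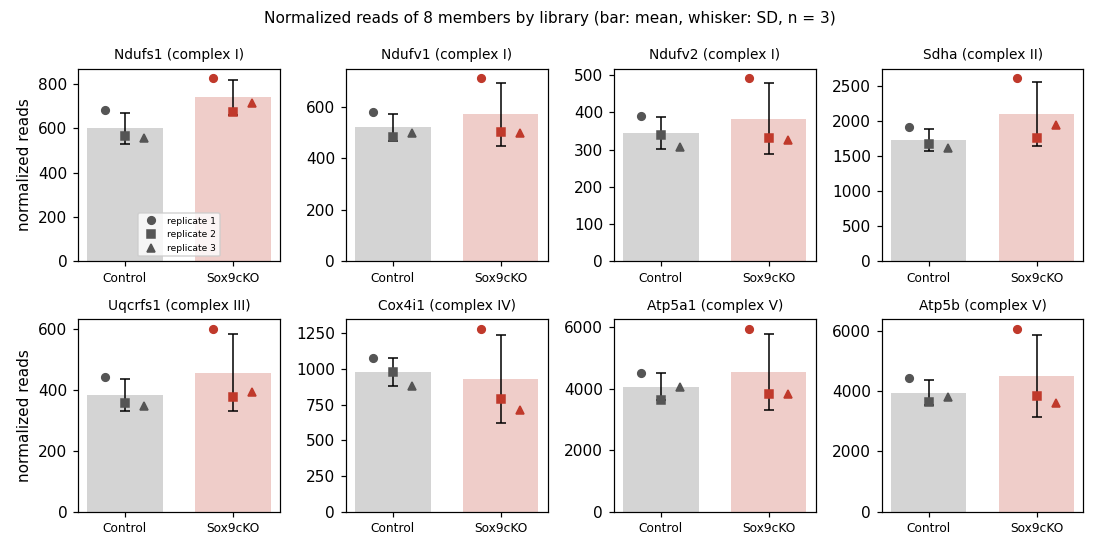
Normalized reads of 8 members with central roles in their complexes (vertical axis, starting at 0) in Control and Sox9cKO libraries, with replicates as circles, squares and triangles, the mean as a bar and the SD as a whisker (n = 3). In each of the 8 panels the highest point is Sox9cKO replicate 1.

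Complex II, succinate dehydrogenase, is also an enzyme of the citric acid cycle and the only complex here without a subunit encoded by mitochondrial DNA. All 4 members were tested and 0 were called, all 4 were above 0 (median 0.14), and 1 of 4 was above 0 without Sox9cKO replicate 1 (median -0.077). Sdha, the flavoprotein that oxidises succinate, had normalized reads of 1911, 1673 and 1609.5 in Control and 2619, 1751 and 1944 in Sox9cKO, with a log2 fold change of 0.26 (95% interval -0.13 to 0.66, adjusted p = 0.478). Sdhb, the iron-sulfur subunit, had 356, 337 and 289 in Control and 497, 314 and 295 in Sox9cKO (log2 fold change 0.14, adjusted p = 0.805). Sdhc and Sdhd anchor the enzyme in the membrane. Sdhc had 314, 274 and 317 in Control and 493, 265 and 284 in Sox9cKO, and Sdhd had 224, 227 and 205 in Control and 308, 216 and 205 in Sox9cKO, with fold changes of 0.15 and 0.13. For Sdhb, Sdhc and Sdhd, Sox9cKO replicate 1 lay above every other library while the other 2 Sox9cKO libraries lay within or under the Control range.

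Complex III passes electrons from ubiquinol to cytochrome c. Its 9 members were tested and 0 were called, 6 were above 0 and 3 below (median 0.17, or -0.053 with 4 of 9 above 0 without Sox9cKO replicate 1). Uqcrfs1, the Rieske iron-sulfur protein, had normalized reads of 445, 358 and 348 in Control and 603, 376 and 395 in Sox9cKO (log2 fold change 0.23, adjusted p = 0.634). Cyc1, cytochrome c1, had 347, 303 and 399 in Control and 537, 345 and 325 in Sox9cKO (log2 fold change 0.17, adjusted p = 0.741). These are the electron-carrying subunits encoded in the nucleus, and in both the groups overlapped. Of the core proteins, Uqcrc1 had 880.1, 782 and 788 in Control and 1331, 888 and 832 in Sox9cKO, and Uqcrc2 had 634, 549 and 619 in Control and 899, 573 and 688 in Sox9cKO. Uqcrc1 (log2 fold change 0.29, adjusted p = 0.496) had the lowest p of the complex, and its 95% interval was -0.16 to 0.73. Uqcrq, a small subunit on the side of cytochrome b, had 327, 395 and 356 in Control and 619.8, 406 and 336 in Sox9cKO (log2 fold change 0.29, adjusted p = 0.576). The other small subunits gave no larger differences: Uqcrb had -0.11, Uqcrh, the hinge protein, -0.034, Uqcr11 -0.042 and Uqcr10 0.011 on the log2 fold change scale. Uqcr10 had the highest ratio of any tested member in Sox9cKO replicate 1 (93.3, 71.5 and 77.2 in Control and 155, 58.6 and 57.7 in Sox9cKO), and its fold change without that library was -0.46.

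Complex IV, cytochrome c oxidase, reduces oxygen to water. Of its 16 members 13 were tested and 0 were called, 7 were above 0 and 6 below (median 0.15). Without Sox9cKO replicate 1 the median was -0.21 with 1 of 14 above 0, the lowest median of the 5 complexes in that fit. Cox4i1, the common isoform of a regulatory subunit, had normalized reads of 1081, 976 and 881 in Control and 1284, 789 and 715 in Sox9cKO. Sox9cKO replicate 1 lay above all Control libraries and replicates 2 and 3 under all of them, and the fold change was -0.12 (adjusted p = 0.835), or -0.38 without replicate 1 (adjusted p = 0.263). Cox5a, a matrix-side subunit, had 195, 211 and 190.1 in Control and 300.5, 211 and 233 in Sox9cKO and groups that did not overlap, by 0.062 normalized reads between Control replicate 2 and Sox9cKO replicate 2 (log2 fold change 0.30, adjusted p = 0.424). Cox5b, the zinc-binding subunit, had 521, 467 and 525 in Control and 766, 507 and 471 in Sox9cKO (log2 fold change 0.17).

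Several complex IV subunits have isoforms bound to tissue. The forms usual in liver were abundant: Cox6a1 had normalized reads of 318, 309 and 287 in Control and 527, 285 and 272 in Sox9cKO, and Cox7a2 had 177, 148 and 144 in Control and 205, 150.3 and 114 in Sox9cKO. Cox7a1, the form of heart and skeletal muscle, had 41.2, 27.8 and 24.2 in Control and 40.8, 8.51 and 15.8 in Sox9cKO. Control replicate 1 and Sox9cKO replicate 1 held nearly equal values and the other Sox9cKO libraries lay under all Control libraries (log2 fold change -0.73, 95% interval -2.04 to 0.57, adjusted p = 0.558), with -1.31 without Sox9cKO replicate 1 (adjusted p = 0.215). Cox4i2, an isoform best known from lung, had 10.9, 9.28 and 16.1 in Control and 4.97, 10.4 and 6.79 in Sox9cKO, and Cox6b2, a testis isoform, had 10.1, 9.28 and 11.5 in Control and 7.96, 4.73 and 9.06 in Sox9cKO, both under the level for testing. Cox6c2 had 8.41, 5.57 and 4.61 in Control and 23.9, 3.78 and 3.40 in Sox9cKO, was not tested either, and shares 52.7% of its 50-base words with Cox6c, which had 612, 475 and 476 in Control and 1069, 589 and 446 in Sox9cKO. Cox6a2, Cox7b2, Cox8b, Cox8c and Ndufa4l2 were not analysed here. Cox7a2l, which is known to join complexes III and IV into supercomplexes, had 239.6, 226 and 205 in Control and 266, 156 and 189 in Sox9cKO (log2 fold change -0.17), and Ndufa4 had 306, 230.2 and 235 in Control and 271, 242 and 209 in Sox9cKO (log2 fold change -0.09).

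Complex V consists of a catalytic head and stalk in the matrix and a rotor and stator in the membrane. Its 17 members were tested and 0 were called, 14 were above 0 and 3 below (median 0.11, or -0.091 with 4 of 17 above 0 without Sox9cKO replicate 1). Atp5a1 and Atp5b form the ring of the head, and Atp5b holds the catalytic sites. Atp5a1 had normalized reads of 4500.4, 3635 and 4047 in Control and 5946, 3807 and 3811 in Sox9cKO (log2 fold change 0.13, 95% interval -0.33 to 0.59, adjusted p = 0.79). Atp5b had 4426, 3634 and 3795 in Control and 6076, 3846 and 3603 in Sox9cKO (log2 fold change 0.15, 95% interval -0.34 to 0.64, adjusted p = 0.756). Apart from Sox9cKO replicate 1, the libraries of both genes overlapped. Atp5c1, the rotating central stalk, had 816, 661 and 639 in Control and 1053, 649 and 668 in Sox9cKO (log2 fold change 0.13, adjusted p = 0.797), and Atp5d, which sits at its foot, had 638, 599.6 and 629 in Control and 793, 501 and 488 in Sox9cKO, with a log2 fold change of -0.10, or -0.33 without Sox9cKO replicate 1 (adjusted p = 0.255).

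The membrane ring of c subunits is encoded by 3 genes that give the same mature protein. Atp5g3 had normalized reads of 594, 541 and 515 in Control and 759, 515 and 499 in Sox9cKO, Atp5g1 had 115, 109.5 and 101 in Control and 127, 100.2 and 122 in Sox9cKO, and Atp5g2 had 44.6, 32.5 and 34.6 in Control and 46.8, 39.7 and 40.8 in Sox9cKO. Per kilobase of transcript the Control means were 770.5 for Atp5g3, 182 for Atp5g1 and 84.4 for Atp5g2, an order that the Sox9cKO means (828, 196 and 96.2) kept. The shortest principal transcript was used, 596 bases for Atp5g1, whose longest, of 4715 bases, would give a lower level. Transcripts of Atp5g2 share 100% and those of Atp5g1 66.0% of their 50-base words with other genes, chiefly Gm10231 and Gm10039, so these levels may miss reads. In the stator, Atp5pb had 530.4, 499 and 447 in Control and 639, 479 and 481 in Sox9cKO (log2 fold change 0.10), and Atp5o, which ties the stator to the head, had 357, 271 and 296 in Control and 516, 286 and 268 in Sox9cKO (log2 fold change 0.16). Atp5md, a small membrane subunit, had 111, 84.5 and 101 in Control and 164, 112 and 99.6 in Sox9cKO (log2 fold change 0.31, adjusted p = 0.561), the lowest p in complex V. Atp5j2 had 255, 259.9 and 238 in Control and 340.3, 204 and 174 in Sox9cKO, with a log2 fold change of -0.13, or -0.41 without Sox9cKO replicate 1 (adjusted p = 0.279).

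The proportions between the complexes were close in the group means, while the totals differed between libraries. Summed over members as normalized reads per kilobase, complex V took 33.9% ± 0.39 in Control and 33.9% ± 0.22 in Sox9cKO (SD, n = 3), complex I took 27.8% ± 0.11 and 27.6% ± 0.91, and complex IV took 20.8% ± 0.17 and 20.7% ± 1.14. Complex III took 13.6% ± 0.40 and 13.7% ± 0.040, and complex II took 3.82% ± 0.086 and 4.09% ± 0.28. In each complex the difference between the group means was no larger than the SD of the Sox9cKO libraries, apart from complex III, where it was smaller than the Control SD. Sox9cKO replicate 1, with a total of 44885 normalized reads per kilobase beside 26906 to 32992 in the other libraries, had shares of 26.7% for complex I, 21.9% for complex IV and 33.8% for complex V. Complex IV ranged from 19.6% in Sox9cKO replicate 3 to that 21.9%, and complex II from 3.74% in Control replicate 3 to 4.40% in Sox9cKO replicate 3.

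**Figure D5:**
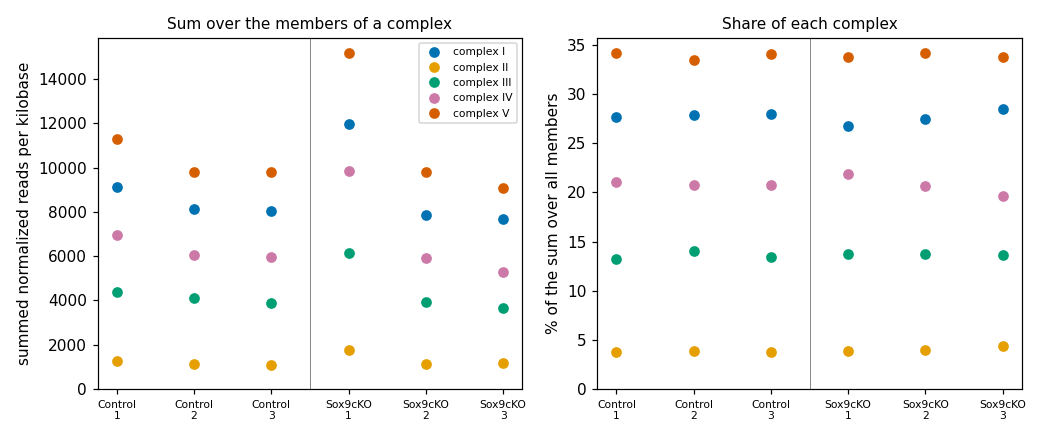
Left, summed normalized reads per kilobase of the members of each complex by library. Right, the share of each complex in the sum over all members. The totals are highest in Sox9cKO replicate 1 for all 5 complexes, while the shares lie between 33.5% and 34.2% for complex V, 26.7% and 28.5% for complex I, 19.6% and 21.9% for complex IV, 13.3% and 14.0% for complex III and 3.74% and 4.40% for complex II.

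Levels per kilobase spanned a wide range within each complex. In Control, Atp5b had the highest level of all members (2062), followed by Atp5a1 (1644), Cox4i1 (1315), Cox6c (1036) and Uqcrq (888). Lengths are of the shortest principal transcript, 405 bases for Uqcrq and 503 for Cox6c. Their longest principal transcripts, of 1521 and 738 bases, would give lower levels. The highest in complex I was Ndufa6 (752) and in complex II Sdha (597). Among the least abundant were Ndufb4 (17.4), Cox4i2 (16.7) and Ndufb4c (5.18). The order was nearly the same in both groups (Spearman correlation 0.984 across the 84 members, which share their libraries and transcript lengths and are not independent). Ndufa6 moved from rank 8 in Control to rank 18 in Sox9cKO. Ndufb2 (42 to 54), Cox7a2l (55 to 66), Atp5md (41 to 30) and Ndufb5 (58 to 47) moved further. Levels of members with shared sequence carry an added uncertainty: 34 members had no 50-base word in common with another gene, and 17 had over 30% in common, among them Atp5l (84.8%), Atp5h (66.6%), Cox7c (53%) and Atp5o (50.3%). Ndufb6 and Cox5a, whose groups did not overlap, share 34.1% and 32%.

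The genes that build and supply the chain were read from 7 lists, and limma called 0 of their 143 tested genes, beside 2.97% of all tested genes. An unadjusted p under 0.05 was seen for 10 of the 143, beside 17.8% of all tested genes. edgeR called 0 and DESeq2 called 2 of the 143, and limma with the replicate block called 4 (Esrrb, Idh2, Pcx and Eno1), beside 8.05% of all tested genes. The 8 mitochondrially encoded subunits in the table had a median log2 fold change of 0.064 (5 above 0), or -0.024 without Sox9cKO replicate 1. The list holds 13 subunits, and mt-Atp6, mt-Atp8, mt-Co2, mt-Co3 and mt-Nd4l were not analysed here. mt-Co1, the catalytic subunit of complex IV, had normalized reads of 36623, 36059 and 32691 in Control and 42120.0, 28544 and 35541 in Sox9cKO (log2 fold change -0.0049, 95% interval -0.40 to 0.39), and mt-Nd5, a proton-pumping subunit of complex I, had 14091, 15593 and 16045 in Control and 18722, 13182 and 16767 in Sox9cKO (log2 fold change 0.077). Sox9cKO replicate 1 was the highest library for 5 of the 8, which summed to 111664 there beside 81273 to 102663 in the other libraries, and Sox9cKO replicate 2 was the lowest for mt-Co1 and mt-Nd5. Assembly factors of complex I (18 tested, median 0.086) had their highest value in Sox9cKO replicate 1 for 3 of 18, and those of complexes II to V (37 tested, median 0.064) for 15 of 37. Sdhaf2, an assembly factor of complex II, had the lowest p of these at 184, 183 and 196 in Control and 254, 263 and 303 in Sox9cKO (log2 fold change 0.54, adjusted p = 0.11). Ndufaf5, an assembly factor of complex I, had 55.5, 42.7 and 57.6 in Control and 79.6, 62.4 and 128 in Sox9cKO (log2 fold change 0.73, adjusted p = 0.275).

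The regulators of mitochondrial gene expression (26 tested, median 0.026) were highest in Sox9cKO replicate 1 for 5 of 26. Ppargc1a, the coactivator best known for driving mitochondrial biogenesis, had normalized reads of 401, 272 and 274 in Control and 171, 158 and 214 in Sox9cKO. All Sox9cKO libraries lay under all Control libraries, and the log2 fold change of -0.79 had an adjusted p of 0.11, or 0.0557 with the replicate block. None of the factors whose letters were sought in the promoters passed the test. Nrf1 had 762, 744 and 836 in Control and 711, 807 and 753 in Sox9cKO (log2 fold change -0.045, adjusted p = 0.886). Gabpa had 921, 938 and 1033 in Control and 886, 893 and 881 in Sox9cKO (log2 fold change -0.12, adjusted p = 0.623), and Yy1 had 1909, 1864 and 1879 in Control and 1705, 1848 and 1665 in Sox9cKO (log2 fold change -0.12, adjusted p = 0.609). Esrrb, an orphan nuclear receptor, was called by limma with the block, with 23.5, 81.7 and 5.76 in Control and 70.6, 143 and 20.4 in Sox9cKO (log2 fold change 1.33, adjusted p = 0.553, 0.0397 with the block). Esrra, its relative best known for respiratory genes, had 126, 100.2 and 94.5 in Control and 173, 159 and 118 in Sox9cKO (log2 fold change 0.48, adjusted p = 0.315).

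The carriers and other entry points to the chain (18 tested, median 0.075, 9 of 18 highest in Sox9cKO replicate 1) included Cycs, cytochrome c, with normalized reads of 217, 206 and 202 in Control and 237, 178 and 174 in Sox9cKO (log2 fold change -0.098). The citric acid cycle and pyruvate dehydrogenase list (19 tested, 16 above 0, median 0.14, 15 of 19 highest in Sox9cKO replicate 1) included 2 genes of the blocked fit. Pcx, pyruvate carboxylase, had 91.6, 91.9 and 128 in Control and 395, 232 and 206 in Sox9cKO, with all Sox9cKO libraries above all Control libraries (log2 fold change 1.37, adjusted p = 0.052, 0.0298 with the block). Idh2, the mitochondrial isocitrate dehydrogenase that uses NADP, had 1307, 1001 and 1052 in Control and 2249, 1359.9 and 1572 in Sox9cKO (log2 fold change 0.60, adjusted p = 0.19, 0.0239 with the block). In glycolysis (17 tested, 10 above 0, median 0.099, 11 of 17 highest in Sox9cKO replicate 1), Eno1, enolase, had 1499.6, 985 and 1209 in Control and 1038, 695 and 761 in Sox9cKO (log2 fold change -0.57, adjusted p = 0.215, 0.0231 with the block). Pcx and Idh2 were higher and Eno1 lower in Sox9cKO, and these 3 genes passed the threshold in limma with the block and not in the fit without it at the main settings. Pcx also passed without the block when no filter or sample weights were used. Sdha to Sdhd, the members that belong to both the chain and the cycle, passed in neither.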

How the data were processed

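RNA was total RNA depleted of ribosomal RNA, and the libraries were stranded and carried unique molecular identifiers, per the labels' protocols. The authors deposited 1 table of a signal per gene and library, gene counts divided by a size factor, which the submitters' processing notes tie to DESeq2 1.36.0 and the build GRCm39. The aligner, the counter and the use of the molecular identifiers and of the strand are not given in the sources used here. Whole reads were recovered from the deposited signal for 100% of values (tolerance 0.001 reads), giving 11883496 to 16191990 reads per library. Every gene in the table had at least 10 reads in all, and genes under that were not analysed here. The number of libraries limits the precision.

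Values were transformed as log2(value + 1), which understates the change of low genes, and genes with a mean of at least 10 entered limma 3.58.1 (R 4.3.3, intensity trend, two-sided, Benjamini-Hochberg over all tested genes, threshold 0.05). The scripts were tested on simulated data. Alternatives were edgeR 4.0.16 and DESeq2 1.42.0 on the recovered reads, a replicate block, other pseudocounts (0.1 and 5), filters and scalings, sample weights, removal of the trend with transcript length and GC content, and leaving out each library. Same-numbered libraries are numbered alike in the labels, and their deviations from the group means correlated at 0.21, 0.47 and 0.54 across genes, so the numbers were taken to pair them. Differently numbered libraries of the 2 groups correlated at -0.44 to 0.048. Deviations are taken from the group means, so these correlations are not independent of each other.

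The members and gene lists were chosen with earlier results of these data known. The named genes are Sox9, the core subunits and tissue-restricted isoforms, and in each complex the 2 members with the smallest p-values and the one with the highest level per kilobase. Other genes were named after their values were seen. The result of 1 gene that the rule selects is not reported here, and the gene stays in the counts. Transcript lengths, GC content and 50-base words shared between genes came from GENCODE mouse annotation on GRCm38, with the shortest principal transcript of a gene as its length. Coordinates are given for the RefSeq promoters alone.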

Additional observations from a re-analysis of the deposited data

How the results depend on the processing

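No alternative called a member. Of the values of the main comparisons under other settings, 306 stayed on their side of the threshold or near their main value and 24 did not. A median counted as near could still change sign. The members' median of 0.12, at -0.11 without Sox9cKO replicate 1, is among the 306. Of the 26 tested members named by the rule, 11 changed sign without Sox9cKO replicate 1 and 8 with sample weights. The count of all called genes, 510, was 1043 with sample weights and 1214 with DESeq2. With the replicate block, that is, with the pairing by number, it was 1381, with length and GC correction and the replicate block 1593, and with edgeR and the block 1160. Leaving out 1 library gave 200 to 389 called genes, and leaving out both libraries numbered 1, an alternative chosen after seeing the data, gave 12. The complex IV median was 0.15 with all libraries and -0.21 to 0.25 when 1 library was left out, with the lowest value without Sox9cKO replicate 1. Against 0 called genes in each list, the regulators gave 1 with sample weights, with the block and with DESeq2, and 2 with length and GC correction and the block. The citric acid cycle list gave 1 without a filter, with sample weights and with DESeq2, and 2 with the block, with length and GC correction and the block, and with edgeR and the block. Glycolysis gave 1 in each of the 3 blocked fits. The block changed no other call among these lists. Sox9 did not pass without both libraries numbered 1 (adjusted p = 0.0962), where each group has 2 libraries. The members' median was -0.011 with sample weights, which weigh down libraries that stand apart. The cause of these shifts was not tested. Depth limits the 4 untested members, Ndufb4c, Cox4i2, Cox6b2 and Cox6c2, and the rarest genes.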
